A study of Mus musculus with 12 samples.

Results

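The transcriptome of bone endothelial cells (BECs) of male mice was compared between 65 and 2 weeks of age. The comparison took 3 libraries at each age, 6 of the 12 libraries of the series, and included every gene past a minimum of reads, which left 14959 of the 37620 genes in the count table. All mice are labelled c57/Bl6, an inbred laboratory strain (C57BL/6J in the methods of the study), with no transgene or treatment named. The label gives the tibia as the source, whereas the methods describe tibiae and femurs. The cells were selected by endomucin, a surface sialomucin of bone capillaries, with antibody-coated beads according to the methods and by sorting into lysis buffer according to the labels. Per the methods of the study, 3 samples in each set were taken forward by RNA quality. Whether the 3 libraries of an age came from separate animals is not given in the labels, so each p measures the spread between these libraries only. Total counts ran from 36335541 to 44569600 at 2 weeks and from 26044743 to 27323682 at 65 weeks, so a low transcript was measured less well in the older mice.

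Blood vessels of growing bone run beside the growth plate, deliver oxygen and lipid, and release signals that guide osteoblasts, the cells that lay down matrix. At 2 weeks the tibia lengthens rapidly, and cartilage is replaced by bone under the control of hedgehog, Wnt and fibroblast growth factor (FGF) ligands. At 65 weeks growth has ended and the marrow is a site of blood cell formation in an ageing animal. The genes were therefore read in 36 programme lists, which cover cell division, developmental control, extracellular matrix, protein synthesis, energy and lipid metabolism, and immune and stress responses.

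The endothelial signature was low in the 65-week libraries, so that BEC is used here as the name of the selected cells. Cdh5, which encodes the VE-cadherin of endothelial junctions, was measured at 783, 638 and 790 CPM (counts scaled to the library total) at 2 weeks and at 13.1, 14.3 and 10.7 CPM at 65 weeks. Emcn, which encodes endomucin itself, went from 210, 154 and 227 to 6.51, 4.59 and 5.80 CPM. All 22 endothelial markers were lower, and none was at 0, with a summed level of 7673, 6132 and 7234 CPM at 2 weeks against 379, 362 and 432 CPM at 65 weeks. Summed markers of neutrophils went from a range of 4344 to 4678 CPM to a range of 19260 to 28240 CPM, and those of osteoblasts and osteocytes from 4814 to 6156 CPM to 185 to 256 CPM. Of 15 B cell markers 10 rose and 3 fell (5 fell without male 65-week replicate 3), and their sum of 571 to 662 CPM at 2 weeks and 9100 to 11290 CPM at 65 weeks was mostly Ighm. The other 14 B cell markers summed to 305, 358 and 339 CPM at 2 weeks and to 586, 463 and 2080 CPM at 65 weeks. In bulk samples such as these, fewer cells of a type and less RNA per cell cannot be told apart. The part that these shifts in cell markers have in each programme described here was not tested.

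One library stood apart in its Xist counts. Male 65-week replicate 3 held 117 counts of Xist, a transcript of the inactive X chromosome of females, whereas the other 65-week male libraries held 3 and 0 and the 2-week male libraries held 0. It also had the lowest neutrophil sum of its group, 19260 CPM. The common biological coefficient of variation among the 65-week libraries was 0.239 with replicate 3 and 0.187 without it, against 0.105 at 2 weeks. It was not computed without replicate 1 or 2. Counts that leaving out replicate 3 moved by over 1.5 times are given with and without it.

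Age changed a large share of the transcriptome. In males 55.5% of the genes tested differed between the ages (8298 of 14959, at an adjusted p under 0.05 by edgeR), 27.0% (4041 genes) higher and 28.5% (4257 genes) lower at 65 weeks. A called change of at least 2-fold was found for 30.7%, 1852 genes higher and 2741 lower. The imbalance grew with the size of the change, since 755 genes were at least 4-fold higher and 1868 at least 4-fold lower, and 186 were at least 16-fold higher against 641 at least 16-fold lower. The libraries of the 2 ages did not overlap in CPM for 65.4% of the genes (9777), 3888 higher and 5889 lower at 65 weeks. CPM leave out the scaling factors of the fit, which ran from 1.036 to 1.05 at 2 weeks and from 0.9284 to 1.006 at 65 weeks. Non-overlap in CPM therefore leans towards a fall. With so many genes called, a list is described here by its counts beside the shares of all genes called. Its median is set beside that of all genes tested, which was 0.01 on the log2 scale. Scaling by library totals moved that median to -0.11, so changes of about that size depend on the scaling.

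**Figure D1:**
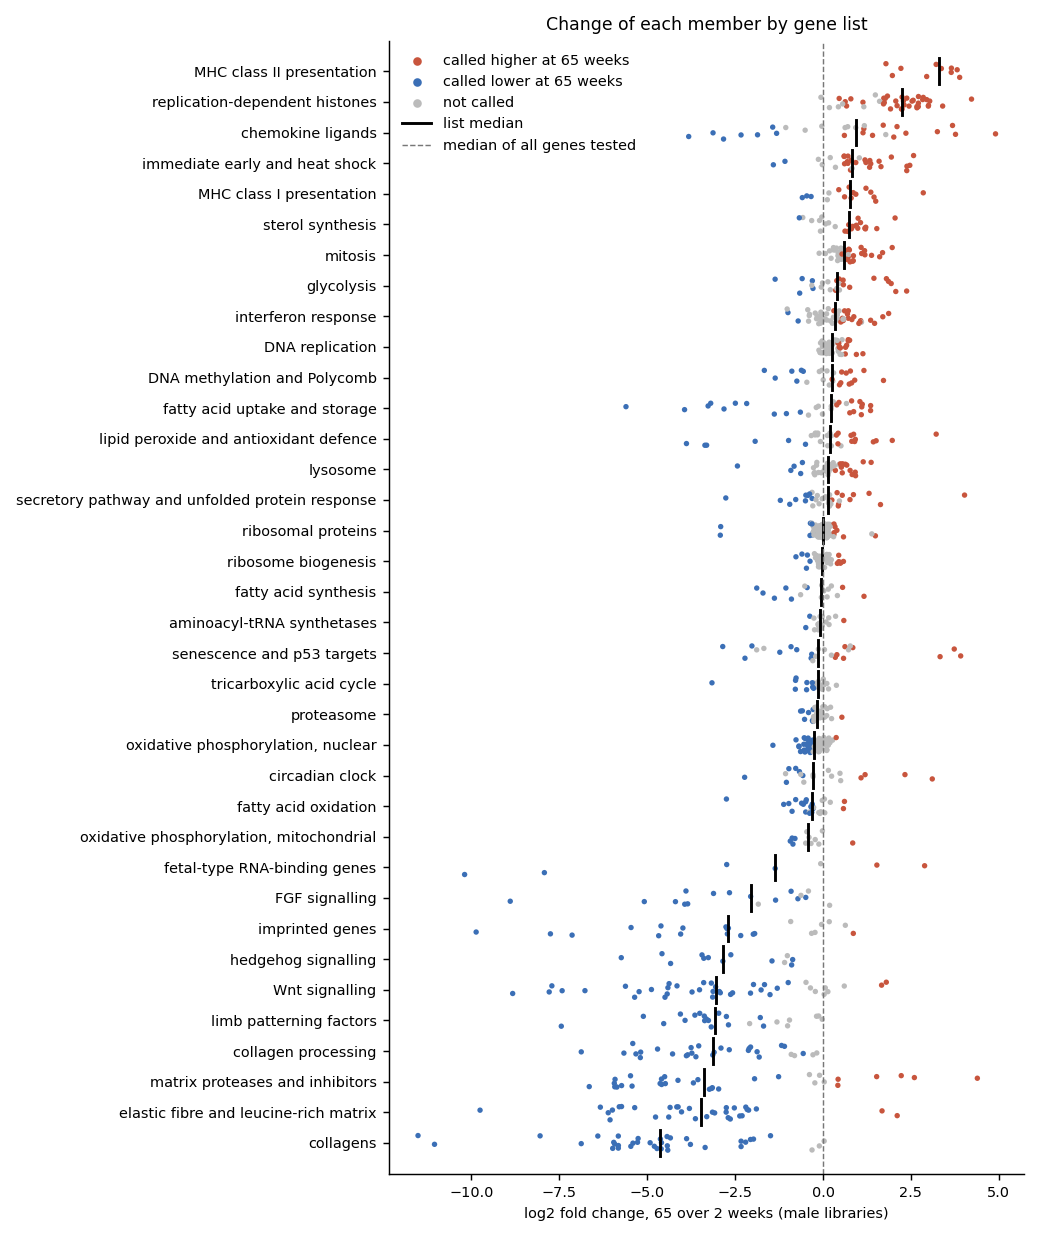
Log2 fold change, 65 over 2 weeks in male libraries (x axis), of each tested member of the 36 programme lists (y axis, sorted by median). Points are genes, red called higher, blue called lower and grey not called, the black bar is the list median and the dashed line the median of all genes tested (0.01). The collagen list has the lowest median (-4.63) and the MHC class II list the highest (3.29).

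Of 47 mitosis genes 23 rose (48.9%, against 27.0% of all genes) and 0 fell, with a median of 0.58 on the log2 scale. Of 49 DNA replication genes 12 rose (24.5%, under the share of all genes) and 0 fell, with a median of 0.27. Mki67 (ENSMUSG00000031004, GRCm39 chromosome 7, 135291513 to 135318299, minus strand), which encodes the Ki-67 protein that coats chromosomes of cycling cells, was measured at 330, 675 and 476 CPM at 2 weeks and at 1281, 1879 and 986 CPM at 65 weeks. Every 65-week library lay above every 2-week library, and the level rose by 1.61 (SE 0.323, edgeR adjusted p = 0.00396). Cenpf (chromosome 1, 189372752 to 189420315, minus strand), which encodes a kinetochore protein, was measured at 43.9, 69.2 and 56.9 CPM and then at 205, 243 and 162 CPM, a rise of 1.97 (SE 0.219, edgeR adjusted p = 0.0002). Cenpe, the kinetochore motor, rose by 1.69 (SE 0.282, edgeR adjusted p = 0.0016), and Top2a, the topoisomerase that untangles sister chromatids, rose by 0.73 (SE 0.228, edgeR adjusted p = 0.0269). The libraries overlapped for Top2a, with 397, 514 and 487 CPM at 2 weeks and 727, 896 and 503 CPM at 65 weeks. Other genes of the same process did not pass the test, among them Ccna2 (edgeR adjusted p = 0.0933), Plk1 (0.133) and Aurkb (0.137).

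Promoters of mitosis genes commonly carry a cell cycle homology region, which binds the DREAM and MuvB complexes, and CCAAT boxes, which bind NF-Y. The promoters of Mki67 and Top2a are shown because both genes rose and carry both elements. The stretches are the 220 bases before the RefSeq transcription start in GRCm38.p6, with matches on either strand to the cell cycle homology region (TTTGAA or TTCGAA) or to CCAAT in capitals. The Mki67 stretch is at chr7:135716380-135716599 and the Top2a stretch at chr11:99024190-99024409, both on the minus strand.
Mki67: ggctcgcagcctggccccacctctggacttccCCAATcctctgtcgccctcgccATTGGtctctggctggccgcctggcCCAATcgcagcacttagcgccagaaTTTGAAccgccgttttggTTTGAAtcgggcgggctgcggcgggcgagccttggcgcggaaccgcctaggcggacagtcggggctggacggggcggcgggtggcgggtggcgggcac
Top2a: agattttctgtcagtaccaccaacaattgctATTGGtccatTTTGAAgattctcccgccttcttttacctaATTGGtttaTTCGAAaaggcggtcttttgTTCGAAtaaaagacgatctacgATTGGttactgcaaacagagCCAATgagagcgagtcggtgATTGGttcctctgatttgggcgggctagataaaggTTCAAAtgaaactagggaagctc
In windows of 300 bases around the start, 250 before and 50 after, the cell cycle homology region was found in 31 of the 39 mitosis promoters listed (79.5%) and in 19.4% of all 27025 mouse promoters, and CCAAT in 29 of the 39 (74.4%) and in 37.9% of all. An E2F site (TTTGGCGC or TTCCCGCC) was found in 12 of 40 DNA replication promoters (30.0%) and in 2.75% of all. These matches are a description of the letters in the window.

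The number of cell division genes called depended on which libraries were fitted. Without 65-week replicate 3 the mitosis count was 44 of 47 and the DNA replication count 30 of 49. Without 65-week replicate 1 the mitosis count was 11, without 65-week replicate 2 it was 14, and without 2-week replicate 1 or 3 it was 11 or 14. DNA replication genes were called 3 to 5 times in each of the other 5 fits that left out 1 library, and 4 times with library totals. The summed level of the mitosis list was 9606 and 11770 CPM in 65-week replicates 1 and 2 but 6760 CPM in replicate 3, which fell inside the 2-week values of 4943, 6891 and 6216 CPM. Erythroid markers, of which 3 of 10 rose with all libraries and 8 of 10 without replicate 3, were likewise lower in replicate 3, at a summed 31420 CPM against 46540 and 43610 CPM, and ranged from 30880 to 44400 CPM at 2 weeks. Their part in the cell division counts was not tested. Rrm2, the regulated subunit of ribonucleotide reductase, was measured at 438, 605 and 557 CPM at 2 weeks and at 710, 791 and 465 CPM at 65 weeks and did not pass the test (edgeR adjusted p = 0.151, and 0.0110 without the library). Ccne2, cyclin E2 of the entry into S phase, rose in the fit of all 6, from 47.4, 69.8 and 61.3 CPM to 142, 139 and 77.1 CPM (log2 change 1.13, SE 0.267, edgeR adjusted p = 0.00831).

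**Figure D2:**
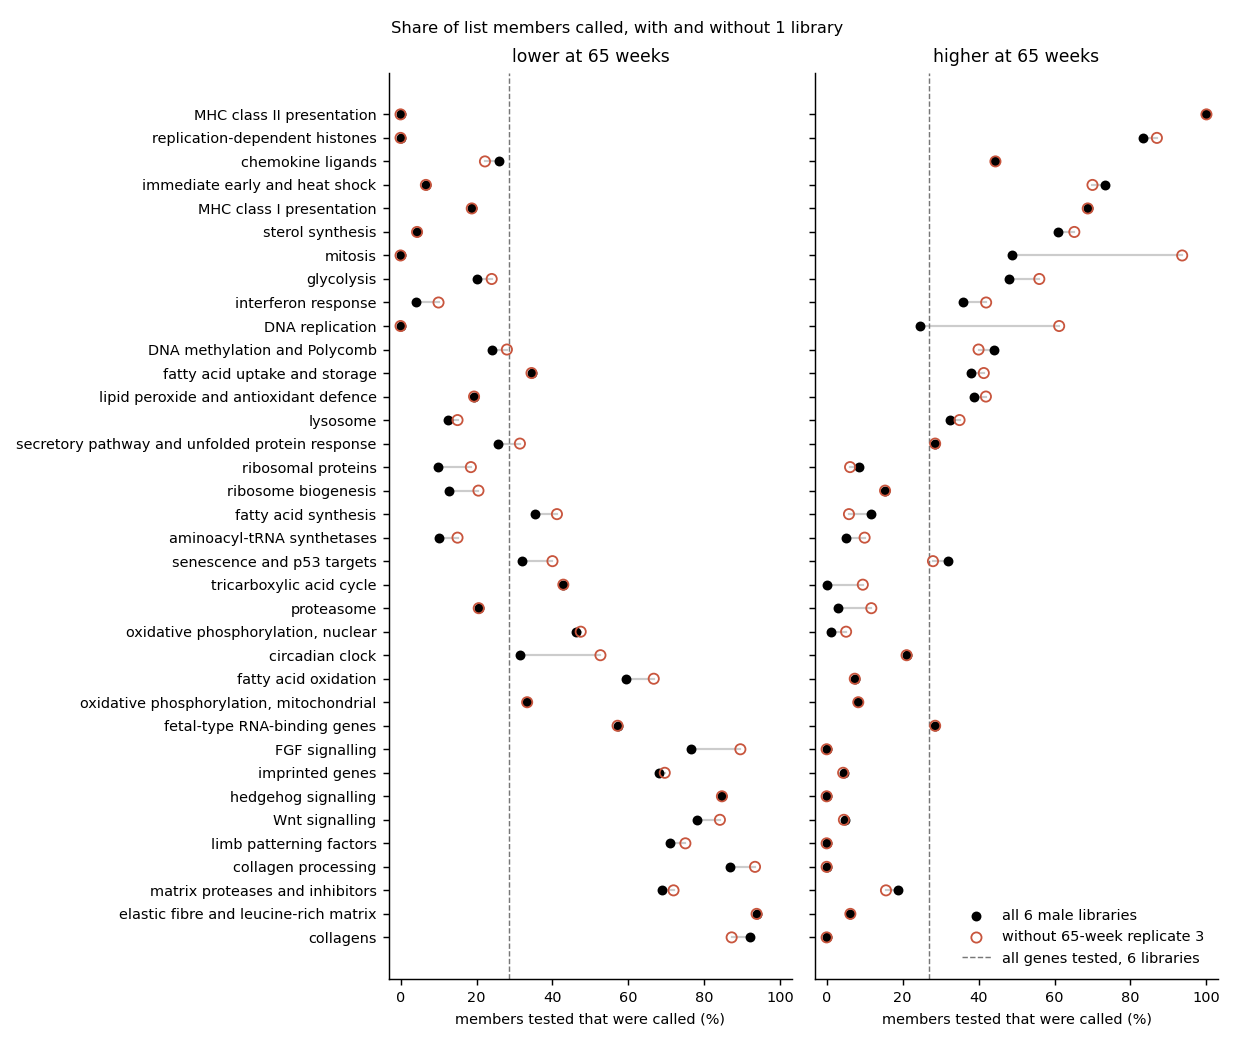
Percent of tested members called lower (left) and higher (right) at 65 weeks for each programme list, in all 6 male libraries (black) and without 65-week replicate 3 (open red). The dashed lines are the shares of all genes tested, 28.5% and 27.0%. The mitosis list goes from 23 to 44 of 47 members called higher and the DNA replication list from 12 to 30 of 49.

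A larger share of the replication-dependent histone genes tested was called higher. These genes lie in clusters, are transcribed in S phase and give messages that end in a stem-loop in place of a polyadenylated tail. Of 54 genes in the list 42 could be tested, 35 rose and 0 fell, with a median of 2.24. A member near absent at 2 weeks could pass the filter through the 65-week libraries alone. Its rise was then nearly fixed in advance, so calls of such members are not support for a rise of the family. H2bc21, among the 3 most abundant members, did not pass the test (log2 change 0.436, SE 0.193, edgeR adjusted p = 0.0895). Leaving out 1 library at a time gave 27 to 40 that rose, and 1 that fell without 65-week replicate 1. H1f2, a linker histone, was measured at 70.4, 78.3 and 64.0 CPM at 2 weeks and at 99.1, 97.2 and 72.3 CPM at 65 weeks, an increase of 0.46 (SE 0.164, edgeR adjusted p = 0.0446) with overlapping libraries. H4c6, a histone H4 gene, went from 0.224, 0.431 and 0.688 to 2.27, 7.37 and 3.34 CPM (log2 change 3.40, SE 0.574, edgeR adjusted p = 0.0017). The summed list was at 151, 178 and 178 CPM at 2 weeks and at 324, 361 and 229 CPM at 65 weeks. Copies of these genes are near identical, so the counting could have split their reads. The libraries are labelled as polyA RNA but were made with a kit for total RNA, so how fully these messages were captured is not known.

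Genes that control prenatal and early postnatal growth fell. Imprinted genes are expressed from 1 parental allele, and many of them act on body growth. Of 22 tested 15 fell, 1 rose and 6 did not pass, with a median of -2.71, and between 15 and 17 fell in the fits that each left out 1 library (2 rose without 65-week replicate 1). Mest (chromosome 6, 30723546 to 30752058), a paternally expressed gene of the mesoderm, was measured at 181, 132 and 215 CPM at 2 weeks and at 1.79, 1.33 and 0.269 CPM at 65 weeks (log2 change -7.14, SE 0.499, edgeR adjusted p = 1.86e-05). Peg3, also paternally expressed, was at 18.1, 16.8 and 19.9 CPM and then at 0, 0.0370 and 0.192 CPM. Nnat had 3.50, 3.59 and 3.58 CPM at 2 weeks and no count in any 65-week library, which is at least 31.7-fold lower against a floor of 3 counts per library. The growth factor gene Igf2 went from 57.5, 58.2 and 79.6 to 14.3, 2.85 and 10.6 CPM, its maternally expressed neighbour H19 from 21.1, 21.1 and 22.6 to 0.878, 0.333 and 0.115 CPM, and Grb10, an adaptor that restrains insulin and growth factor receptors, from 150, 128 and 168 to 5.86, 7.67 and 12.6 CPM. All 3 fell in the test, with log2 changes of -2.69, -5.46 and -3.99. The fall was not shared by all imprinted genes. Igf2r, the receptor that clears Igf2, was at 77.3, 74.3 and 72.9 CPM and then at 72.5, 64.9 and 63.4 CPM (edgeR adjusted p = 0.755), and Impact, a translation regulator, rose by 0.86 (SE 0.211, edgeR adjusted p = 0.00988).

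RNA-binding and chromatin genes known for fetal-type expression moved in both directions. Of 7 tested 4 fell and 2 rose. Igf2bp3 (chromosome 6, 49062144 to 49192447, minus strand), an RNA-binding protein of fetal tissue, was at 19.97, 19.5 and 21.3 CPM at 2 weeks and at 0, 0 and 0.0384 CPM at 65 weeks, a single count in 1 library. Igf2bp1 and Hmga2, 2 further fetal-type genes, also fell. Lin28a (chromosome 4, 133730641 to 133746173, minus strand), which blocks maturation of let-7 microRNAs, went the other way. It was measured at 2.47, 2.82 and 3.19 CPM at 2 weeks and at 19.9, 24.8 and 12.8 CPM at 65 weeks, an increase of 2.89 (SE 0.281, edgeR adjusted p = 9.51e-05). Arid3a, a DNA-binding factor of B cells and of haematopoietic stem cells, rose from 26.1, 28.2 and 28.5 to 73.1, 82.1 and 64.8 CPM (log2 change 1.53, SE 0.126, edgeR adjusted p = 4.14e-05). For both genes all 65-week libraries lay above all 2-week libraries, and the change was 3.11 and 1.61 without 65-week replicate 3.

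Most tested transcription factors that pattern the limb fell. Of 34 in the list 24 could be tested, 17 fell and 0 rose, with a median of -3.07, or -2.86 with genes at no count set to their bound. A member near absent at 65 weeks, such as Tbx4, could pass the filter through the 2-week libraries alone. Its fall was then nearly fixed in advance, so calls of such members are not support for a fall of the family. Prrx1, a homeobox factor of limb mesenchyme, was measured at 49.5, 45.05 and 48.7 CPM at 2 weeks and at 6.22, 3.44 and 7.29 CPM at 65 weeks (log2 change -2.97, SE 0.243, edgeR adjusted p = 4.01e-05). Hoxc9 went from 1.64, 1.32 and 1.62 to 0.0366, 0 and 0.0768 CPM. Tbx4, the hindlimb T-box factor, had 0.808, 0.431 and 0.743 CPM at 2 weeks and no count at 65 weeks, at least 5.90-fold lower. Meis1, a homeobox cofactor that blood progenitors also use, was at 14.6, 13.9 and 9.94 CPM and then at 9.22, 7.41 and 14.9 CPM and was not called (edgeR adjusted p = 0.575).

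Most tested genes of the hedgehog, Wnt and FGF pathways, which act in the growth plate, fell, among them receptors, some ligands and some targets. In the hedgehog pathway, where a ligand relieves the inhibition of Smoothened by Patched, 11 of 13 tested genes fell and 0 rose (median -2.85). With no low-count filter or with DESeq2, 11 of 15 fell and 1 rose. The ligands Ihh and Shh were too low to test. Ihh had 9, 6 and 11 counts at 2 weeks and 2, 5 and 2 at 65 weeks. Shh had 0 counts in each 2-week library and 10, 7 and 5 at 65 weeks. The signal transducer Smo was measured at 91.5, 75.1 and 88.3 CPM at 2 weeks and at 10.4, 9.15 and 13.2 CPM at 65 weeks (log2 change -2.85, SE 0.146, edgeR adjusted p = 4.64e-06). The ligand Dhh went from 1.86, 1.22 and 1.84 to 0, 0.0741 and 0 CPM, and the transcription factor Gli2 from 4.87, 4.31 and 4.65 to 0.183, 0.222 and 0.115 CPM. The inhibitors fell less, Ptch1 by 0.89 and Sufu by 0.86 (edgeR adjusted p = 0.00286 and 0.00553). For the hedgehog genes named as falling the libraries of the 2 ages did not overlap, which held for 65.4% of all genes tested.

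In the Wnt pathway, in which secreted ligands bind Frizzled and Lrp receptors to stabilise beta-catenin, 32 of 41 tested genes fell and 2 rose (median -3.06, or -2.91 with genes at no count set to their bound). The ligands Wnt4, Wnt5a, Wnt5b, Wnt11, Wnt2b and Wnt7b fell, as did the receptors Fzd4 and Lrp5. Fzd4, which retinal and other endothelium needs, went from 86.7, 70.4 and 78.9 to 3.26, 2.67 and 4.18 CPM (log2 change -4.43, SE 0.172, edgeR adjusted p = 1.47e-06). Secreted inhibitors fell with them. Wif1 (chromosome 10, 120869865 to 120936555), which binds Wnt ligands, was measured at 236, 160 and 188 CPM at 2 weeks and at 3.00, 3.30 and 4.72 CPM at 65 weeks (log2 change -5.62, SE 0.221, edgeR adjusted p = 1.54e-06). Dkk2 and Dkk1, which block Lrp, had no count at 65 weeks and were at least 15.5-fold and at least 7.51-fold lower. Both passed the filter through the 2-week libraries alone, so their fall was nearly fixed in advance. The target gene Lef1 fell by 1.76 (SE 0.282, edgeR adjusted p = 0.00132), while the feedback target Axin2 was at 1.46, 1.34 and 1.46 CPM and then at 0.769, 1.11 and 2.19 CPM (edgeR adjusted p = 0.950). The 2 genes that rose were the ligand Wnt10a, at 1.54, 1.00 and 2.23 CPM at 65 weeks, and the agonist Rspo1, at 0.329, 1.19 and 0.806 CPM. Both calls were lost without 2-week replicate 1, and 1 of them without 2-week replicate 2 or 3.

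In the FGF pathway 13 of 17 tested genes fell and 0 rose (median -2.06). Without 65-week replicate 1, 2 or 3, 19 genes could be tested and the median was -2.72, -2.5 or -3.23. The ligands Fgf9, Fgf10 and Fgf18 were too low to test. The receptors Fgfr1, Fgfr2 and Fgfr3 fell, with log2 changes of -3.12, -3.90 and -3.93. Fgfr2 was measured at 132, 106 and 113 CPM at 2 weeks and at 7.76, 6.001 and 7.99 CPM at 65 weeks (SE 0.152, edgeR adjusted p = 1.47e-06). Fgf23, the phosphate hormone of osteocytes, went from 2.20, 3.97 and 5.20 to 0.0732, 0 and 0.230 CPM. The feedback inhibitors, which are transcribed in response to receptor signalling, fell by less. Dusp6 was at 117, 99.9 and 117 CPM and then at 61.1, 70.8 and 88.0 CPM, and it fell by 0.49 (SE 0.128, edgeR adjusted p = 0.013).

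**Figure D3:**
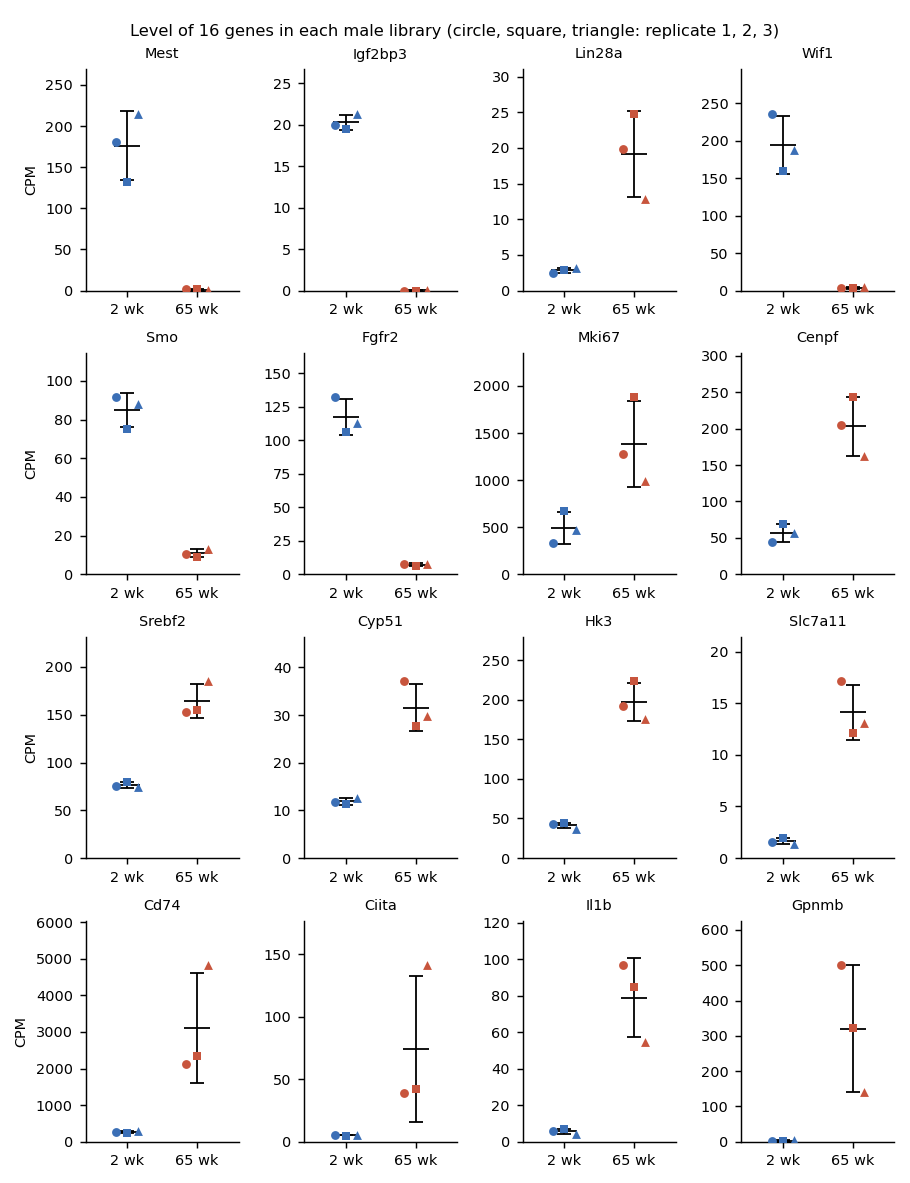
CPM (y axis, from 0) of 16 genes in each male library at 2 weeks (blue) and 65 weeks (red). Circles, squares and triangles are replicates 1, 2 and 3, and bars are the mean and SD (n = 3). Cd74 and Ciita are highest in 65-week replicate 3, at 4835 and 142 CPM, whereas Mki67 is lowest there among the 65-week libraries, at 986 CPM.

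The extracellular matrix showed the deepest fall. Of 44 collagen genes 37 could be tested, 34 fell and 0 rose, with a median of -4.63. The summed collagen level was 11210, 10320 and 13410 CPM at 2 weeks and 334, 351 and 361 CPM at 65 weeks. Leaving out any 1 library left 34 that fell in each of the 6 fits. Col4a1, a chain of vascular basement membrane, was measured at 1491, 1293 and 1629 CPM and then at 22.8, 19.6 and 21.9 CPM (log2 change -5.98, SE 0.155, edgeR adjusted p = 6.99e-07). Col1a1, the chain of bone collagen, fell by 6.41 (SE 0.199, edgeR adjusted p = 9.63e-07). Col9a1, a cartilage chain, was at 11.6, 9.19 and 12.8 CPM and had no count at 65 weeks, at least 99.9-fold lower. Of the collagens 7 are also in the marker lists of chondrocytes or osteoblasts, Col1a1 and Col9a1 among them, and the chondrocyte markers were at a summed 432 to 650 CPM at 2 weeks and 15.6 to 17.6 CPM at 65 weeks.

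The enzymes and chaperones that fold and cross-link collagen fell together with the chains, 26 of 30 lower and 0 higher (median -3.12). Serpinh1, the collagen chaperone Hsp47, was measured at 761, 634 and 821 CPM and then at 22.7, 24.9 and 30.9 CPM (log2 change -4.71, SE 0.158, edgeR adjusted p = 1.03e-06). The lysyl oxidases Lox and Loxl2 fell, with log2 changes of -3.89 and -5.20. P4hb, the prolyl hydroxylase subunit that is also a general disulphide isomerase, fell by 1.18 (SE 0.111, edgeR adjusted p = 7.95e-05), from 915, 807 and 955 to 343, 384 and 363 CPM. Of 32 genes of elastic fibres and leucine-rich proteoglycans 30 fell and 2 rose (median -3.47). Bgn, the proteoglycan biglycan, fell by 3.08. The 2 that rose were Efemp1, a fibulin, from 1.19, 1.12 and 2.26 to 6.81, 4.37 and 6.95 CPM, and Emilin2, from 70.7, 91.7 and 100 to 247, 299 and 226 CPM.

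Matrix proteases and their inhibitors split, 22 of 32 falling and 6 rising (median -3.40). Mmp13, the collagenase of hypertrophic cartilage and bone, went from 974, 920 and 1066 to 17.6, 14.1 and 15.1 CPM (log2 change -5.86, SE 0.156, edgeR adjusted p = 7.18e-07), and the inhibitor Timp3 fell by 4.13. Mmp12, the elastase of macrophages, rose from 0.359, 0.694 and 0.495 to 16.7, 8.34 and 4.61 CPM (log2 change 4.39, SE 0.560, edgeR adjusted p = 0.000414). Adam8, a protease of leukocytes, rose by 2.60 (SE 0.154, edgeR adjusted p = 8.98e-06). Mmp9, which osteoclasts and neutrophils share, was at 1552, 1400 and 1955 CPM and then at 1395, 1058 and 990 CPM and did not pass the test (edgeR adjusted p = 0.124).

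**Figure D4:**
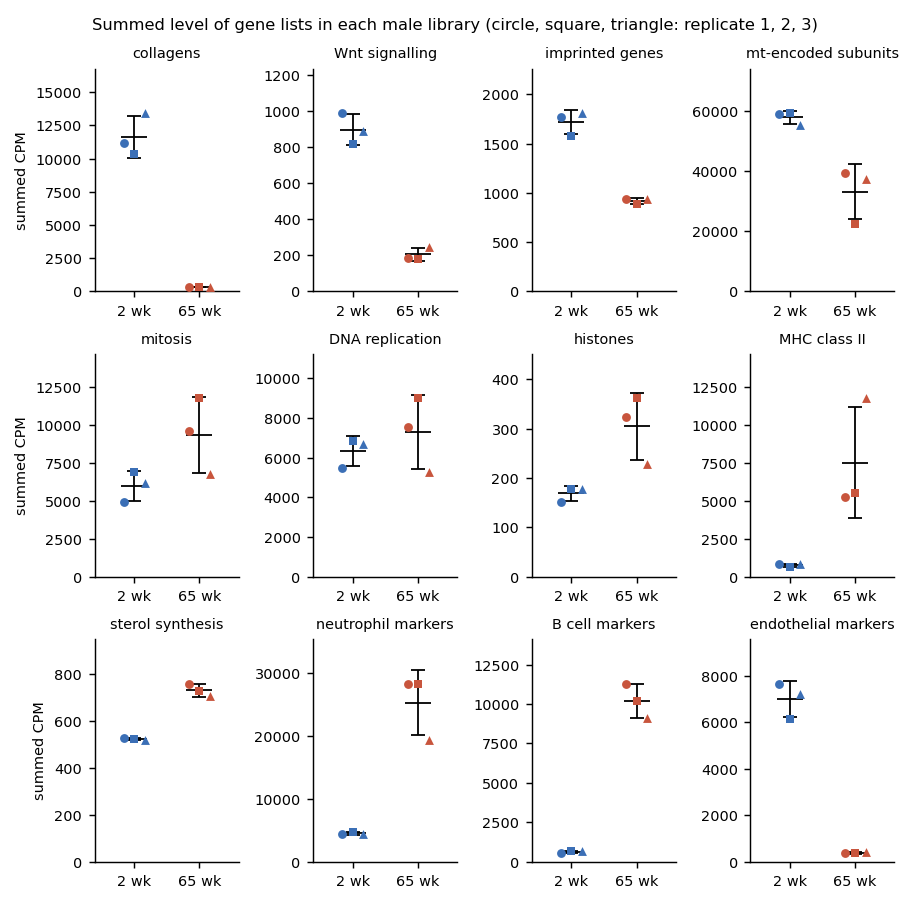
Summed CPM (y axis, from 0) of 9 programme lists and 3 marker lists in each male library at 2 weeks (blue) and 65 weeks (red). Circles, squares and triangles are replicates 1, 2 and 3, and bars are the mean and SD (n = 3). The collagen sum lies between 334 and 361 CPM at 65 weeks, and the mitosis, histone and MHC class II sums set 65-week replicate 3 apart from replicates 1 and 2.

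Fewer genes of protein synthesis were called than among all genes. Of 81 ribosomal protein genes 7 rose and 8 fell, with a median of 0.00, under the shares of 27.0% and 28.5% among all genes. Scaling by library totals gave 2 that rose and 20 that fell, with a median of -0.12. Rplp0 of the ribosome stalk was at 2274, 2295 and 2487 CPM and then at 1900, 2060 and 1912 CPM (edgeR adjusted p = 0.3). Leaving out 1 library gave 2 to 8 that rose and 2 to 15 that fell, with 15 lower without 65-week replicate 3, 4 without 65-week replicate 2 or 2-week replicate 2, and 2 without each of the other 3 libraries. Those that fell most, Rps4l and Rpl39l, are copies of other ribosomal genes and their reads could have been split. Of 39 ribosome biogenesis genes 6 rose and 5 fell, and without 65-week replicate 3, 8 fell. Leaving out 2-week replicate 1 or 2 gave 3 that rose, and leaving out 2-week replicate 3 or 65-week replicate 1 gave 3 that fell. Of 20 aminoacyl-tRNA synthetases 1 rose (2 without 65-week replicate 3) and 2 fell (1 without 2-week replicate 1 or 3, and 4 without 65-week replicate 2). Of 34 proteasome genes 1 rose (4 without 65-week replicate 3) and 7 fell. The proteasome count that fell was 4 without 2-week replicate 1 or 2 and 3 without 2-week replicate 3, and it was 16 with library totals and 10 with DESeq2 or upper-quartile scaling. Genes of the secretory pathway and the unfolded protein response were called at about the shares of all genes, 10 of 35 rising (28.6%) and 9 falling (25.7%). Derl3, an endoplasmic reticulum degradation factor that is also in the plasma cell marker list, rose from 0.628, 0.503 and 0.495 to 6.92, 9.26 and 8.52 CPM (log2 change 4.03, SE 0.235, edgeR adjusted p = 8.41e-06), beside a summed plasma cell level of 175 to 182 CPM at 2 weeks and 1554 to 2060 CPM at 65 weeks. Ssr2, of the translocon, fell by 1.22.

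Of 78 nuclear transcripts of oxidative phosphorylation 36 fell (46.2%, against 28.5% of all genes) and 1 rose, with a median of -0.24. Without 2-week replicate 3, 22 fell and 0 rose, without 2-week replicate 2, 0 rose, and without 65-week replicate 3, 4 rose. Their summed level was 10310, 10360 and 10980 CPM at 2 weeks and 8432, 8737 and 8090 CPM at 65 weeks, with no overlap. These sums leave out the scaling factors of the fit, so they lean towards a fall. Atp5mc2, a subunit of the ATP synthase ring, was measured at 142, 139 and 156 CPM and then at 73.7, 71.3 and 92.6 CPM (log2 change -0.77, SE 0.107, edgeR adjusted p = 0.000665). Subunits encoded by the mitochondrial genome were at a summed 59000, 59190 and 55410 CPM at 2 weeks and at 39410, 22590 and 37510 CPM at 65 weeks, where replicate 2 was the lowest. Of these 12 genes 4 fell (33.3%, against 28.5% of all genes) and 1 rose, with a median of -0.43, or -0.18 without 65-week replicate 2. Among those that fell was mt-Cytb of complex III, by 0.93 (SE 0.215, edgeR adjusted p = 0.00752). The one that rose was mt-Nd6 of complex I, from 4.98, 6.63 and 6.47 to 12.5, 6.56 and 10.8 CPM, and it was not called without 65-week replicate 1 or any 1 of the 2-week libraries. In the tricarboxylic acid cycle 9 of 21 fell (42.9%, against 28.5% of all genes) and 0 rose (2 without 65-week replicate 3). They were led by Pdk4, the kinase that shuts off pyruvate dehydrogenase, at 20.5, 17.1 and 19.1 CPM and then at 1.87, 1.33 and 2.69 CPM. In fatty acid oxidation 16 of 27 fell (59.3%) and 2 rose (median -0.32), and 10 fell without 2-week replicate 1. Leaving out 2-week replicate 1 or 3 or 65-week replicate 1 or 2 left 1 that rose. Cpt1a, which the study describes as rate-limiting for this oxidation, was not called (log2 change 0.206, SE 0.147, edgeR adjusted p = 0.267). Hadh, of the beta-oxidation spiral, fell by 1.12 (SE 0.152, edgeR adjusted p = 0.000572), whereas Hadha, the trifunctional protein, was at 195, 192 and 192 CPM and then at 181, 184 and 183 CPM (edgeR adjusted p = 0.721).

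Glycolytic genes moved in both directions, 12 of 25 rising and 5 falling (median 0.39). The hexokinases Hk3 and Hk2 rose. Hk3, the isoform of myeloid cells, went from 42.5, 43.9 and 37.0 to 192, 224 and 176 CPM (log2 change 2.38, SE 0.141, edgeR adjusted p = 8.9e-06), and Hk2 from 19.2 ± 0.267 CPM (SD, n = 3) to 50.2, 48.6 and 45.7 CPM (log2 change 1.45, SE 0.105, edgeR adjusted p = 2.22e-05). Ldhb, the lactate dehydrogenase subunit of oxidative tissue, fell by 1.36 (SE 0.119, edgeR adjusted p = 5.46e-05), and Gapdh fell by 0.30 (edgeR adjusted p = 0.0301). Pfkl of the same list fell by 0.66 (SE 0.109, edgeR adjusted p = 0.00147). Leaving out each 2-week library in turn, or 65-week replicate 1, left 3 that fell.

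Sterol synthesis rose. Of 23 genes 14 rose (60.9%, against 27.0% of all genes) and 1 fell, with a median of 0.73. In the fits that each left out 1 library 11 to 15 rose, and 0 fell without 2-week replicate 1 and 2 fell without 2-week replicate 3 or 65-week replicate 1 or 2. Srebf2 (chromosome 15, 82031382 to 82093201), the transcription factor that drives the pathway when sterol is low, was measured at 75.5, 79.8 and 74.5 CPM at 2 weeks and at 153, 155 and 185 CPM at 65 weeks (log2 change 1.22, SE 0.0938, edgeR adjusted p = 2.95e-05). Cyp51, the lanosterol demethylase, rose from 11.7, 11.3 and 12.6 to 37.1, 27.7 and 29.8 CPM (log2 change 1.53, SE 0.153, edgeR adjusted p = 0.000111). For both genes every 65-week library lay above every 2-week library. Sqle, Idi1 and Fdft1 of the same pathway rose by 1.00, 0.95 and 0.70. A sterol regulatory element (TCACNCCAC) was found in 0 of 16 promoters of these genes in the 300-base window, against 1.22% of all promoters, which says only that these letters are not in this window.

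Uptake and handling of lipid changed gene by gene, 11 of 29 rising (37.9%) and 10 falling (34.5%), against 27.0% and 28.5% of all genes. Those that fell included genes of the capillary route of fatty acid supply. Gpihbp1, which holds lipoprotein lipase on the endothelial surface, went from 165, 117 and 166 to 2.31, 2.85 and 3.34 CPM (log2 change -5.61, SE 0.200, edgeR adjusted p = 1.25e-06), Fabp4, a fatty acid carrier, fell by 2.82, and Lpl, the lipase itself, fell by 1.39 (edgeR adjusted p = 8.29e-05). Apoe, the apolipoprotein of macrophages and other cells, rose from 1471, 1144 and 1006 to 2899, 2194 and 3468 CPM (log2 change 1.35, SE 0.204, edgeR adjusted p = 0.000994). In fatty acid synthesis 6 of 17 fell (35.3%) and 2 rose (11.8%). Without any 1 library other than 65-week replicate 2, 1 rose. Scd1, the stearoyl-CoA desaturase, rose by 1.17 with all libraries (edgeR adjusted p = 0.04) and was at 59.5, 56.4 and 80.0 CPM and then at 97.6, 70.3 and 244 CPM, and without 65-week replicate 3 the call was lost (edgeR adjusted p = 0.0548). Of 31 genes in the list of lipid peroxide and antioxidant defence 12 rose (38.7%) and 6 fell (19.4%). The list also holds lipoxygenases, which form lipid peroxides, so its counts do not measure defence. Slc7a11 (chromosome 3, 49846975 to 50398070, minus strand), the cystine importer that feeds glutathione, rose from 1.59, 1.99 and 1.35 to 17.2, 12.1 and 13.1 CPM (log2 change 3.22, SE 0.239, edgeR adjusted p = 2.46e-05), and Alox5, the 5-lipoxygenase of leukocytes, rose by 1.97. Alox12, the platelet-type lipoxygenase, fell by 3.36 (SE 0.491, edgeR adjusted p = 0.000835), beside megakaryocyte markers that went from 1693 to 2760 CPM to 132 to 336 CPM in sum.

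Antigen presentation rose. All 10 genes of MHC class II presentation, by which professional antigen-presenting cells show peptides to helper T cells, were higher at 65 weeks (median 3.29), and 9 or 10 in the fits that left out 1 library. Cd74, the invariant chain, was measured at 275, 228 and 293 CPM at 2 weeks and at 2125, 2356 and 4835 CPM at 65 weeks (log2 change 3.65, SE 0.313, edgeR adjusted p = 5.06e-05). Ciita (chromosome 16, 10297923 to 10347694), the coactivator that class II promoters need, was at 5.45, 4.98 and 5.56 CPM and then at 39.2, 41.8 and 142 CPM (log2 change 3.89, SE 0.499, edgeR adjusted p = 0.000431). The summed level was 799, 652 and 811 CPM at 2 weeks and 5241, 5519 and 11720 CPM at 65 weeks. Replicate 3 held the highest value for each of these genes named, and the median was 2.76 without it. The B cell gene Cd79a was also highest in that library, at 412 CPM against 111 and 124 CPM in the other 65-week libraries. Monocyte and macrophage markers were at a summed 6366 to 8870 CPM at 2 weeks and 9197 to 11320 CPM at 65 weeks, and their part in these levels was not tested.

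Class II promoters carry an X box and a Y box, on which RFX and NF-Y assemble to recruit Ciita. The stretches of 220 bases before the RefSeq start in GRCm38.p6 are shown for H2-Eb1 (chr17:34305647-34305866, plus strand) and H2-Aa (chr17:34287824-34288043, minus strand), which encode a beta and an alpha chain and rose by 3.65 and 3.22 (3.21 and 2.81 without 65-week replicate 3), with matches to the core of the X box (AGNAACNG) and to the Y box (CTGATTGG) on either strand in capitals.
H2-Eb1: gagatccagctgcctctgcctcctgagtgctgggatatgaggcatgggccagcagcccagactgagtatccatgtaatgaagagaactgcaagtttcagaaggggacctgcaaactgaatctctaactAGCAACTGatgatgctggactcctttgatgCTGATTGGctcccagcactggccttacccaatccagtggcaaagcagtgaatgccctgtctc
H2-Aa: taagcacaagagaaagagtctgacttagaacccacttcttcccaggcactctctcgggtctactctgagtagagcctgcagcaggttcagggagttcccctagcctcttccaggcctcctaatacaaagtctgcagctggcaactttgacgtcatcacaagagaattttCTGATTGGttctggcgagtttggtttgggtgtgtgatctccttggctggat
The Y box was found in 3 of the 7 class II promoters listed (42.9%) and in 4.31% of all, and the X box core in 3 of 7 (42.9%) and in 17.6% of all. The last letters of the Y box hold the reverse complement of CCAAT, so the matches to those motifs overlap. The GENCODE M39 gene models of H2-Aa (GRCm39 chromosome 17, 34493404 to 34506798, minus strand) and H2-Eb1 (34504236 to 34535648, plus strand) overlap, so some of their reads could have been assigned to either.

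Class I presentation rose for 11 of 16 genes (68.8%) and fell for 3 (18.8%), with a median of 0.77. H2-D1, a classical heavy chain, was measured at 914, 887 and 780 CPM and then at 1674, 1630 and 2276 CPM (log2 change 1.22, SE 0.146, edgeR adjusted p = 0.00029). The chaperones Pdia3 and Calr, which also serve general folding, fell by 0.59 and 0.34, and the peptidase Erap1 by 0.46. Only 1 fell without 65-week replicate 1. H2-Q7, and H2-Q6 outside the lists, rose by 2.85 and 3.24, but these heavy chains are near copies whose reads the counting could have mixed. Interferon response genes rose for 18 of 50 (36.0%, against 27.0% of all genes) and fell for 2 (4.0%, against 28.5%), with a median of 0.34. The number that fell was 5 without 65-week replicate 3, 4 without 2-week replicate 3 and 6 with library totals. Rsad2, the antiviral protein viperin, went from 165, 275 and 165 to 364, 461 and 303 CPM (log2 change 1.02, SE 0.251, edgeR adjusted p = 0.00999), and Zbp1, a nucleic acid sensor, rose by 1.70 (SE 0.190, edgeR adjusted p = 0.000201). Canonical members did not pass the test, among them Irf7, at 60.1, 70.7 and 40.5 CPM and then at 52.4, 76.6 and 53.8 CPM (edgeR adjusted p = 0.473), and Ifit1 (0.113). The interferon-stimulated response element (GAAANNGAA) was found in 23 of 37 of their promoters (62.2%) and in 8.57% of all.

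Immunoglobulin genes that passed the low-count filter rose almost without exception. Of 55 variable segments tested 54 rose and 0 fell (median 4.53), and all 7 constant region genes tested rose (median 9.33). A gene near absent at 2 weeks could pass the filter through the 65-week libraries alone. A rise was then nearly fixed in advance, so these counts are not support for a rise of the family. Ighg1, the constant region of IgG1, had no count in any 2-week library and 228, 140 and 94.2 CPM at 65 weeks, at least 2090-fold higher. Ighm, of IgM, rose from 266, 303 and 322 to 10700, 9713 and 7023 CPM. Single variable segments differed greatly between libraries of the same age. Ighv4-1 was at 1329, 10.6 and 39.5 CPM in 65-week replicates 1, 2 and 3, and Igkv5-48 at 6.37, 242 and 41.1 CPM. Variable segments resemble each other and are given as a family for this reason.

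Chemokine ligands split, 12 of 27 rising (44.4%, against 27.0% of all genes) and 7 falling (25.9%, against 28.5%). Cxcl12, the marrow factor that retains stem cells and leukocytes, fell from 6895, 5681 and 6211 to 1195, 851 and 1408 CPM (log2 change -2.33, SE 0.196, edgeR adjusted p = 4.6e-05), and Cx3cl1, the endothelial fractalkine, fell by 3.13. Ccl6, a chemokine of myeloid cells, rose from 112, 106 and 132 to 543, 366 and 471 CPM (log2 change 2.10, SE 0.171, edgeR adjusted p = 3.87e-05). Immediate early and heat shock genes, which respond within minutes to stress or stimulation, rose for 22 of 30 and fell for 2 (median 0.82), or for 1 without 2-week replicate 2 or 3 or 65-week replicate 1 or 2. Atf3 was measured at 3.16, 2.94 and 3.58 CPM and then at 20.7, 16.6 and 15.7 CPM (log2 change 2.58, SE 0.184, edgeR adjusted p = 2.05e-05). Junb and Hspa1a rose by 1.19 and 2.39 and Fos by 0.78, whereas Egr1 fell by 1.08 (SE 0.317, edgeR adjusted p = 0.0209).

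Genes tied to senescence and to p53 did not move as a group, 8 of 25 rising (5 without 2-week replicate 1) and 8 falling (median -0.13), near the shares of all genes. Il1b and Tnf, inflammatory cytokines, rose. Il1b was at 5.83, 6.96 and 4.29 CPM and then at 97.0, 84.9 and 54.9 CPM (log2 change 3.92, SE 0.291, edgeR adjusted p = 2.45e-05). The p53 target and cell cycle inhibitor Cdkn1a fell by 1.23 (SE 0.149, edgeR adjusted p = 0.000311), from 36.0, 34.7 and 41.2 to 12.1, 13.8 and 18.2 CPM. Cdkn2a, whose p16 product accumulates in senescent cells, was at 0.853, 0.790 and 0.495 CPM and then at 0.366, 0.148 and 1.57 CPM and was not called (edgeR adjusted p = 0.967). Lmnb1, a nuclear lamin that senescent cells lose, rose by 0.62 (SE 0.168, edgeR adjusted p = 0.0151).

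The remaining lists were mixed. Of 40 lysosomal genes 13 rose (32.5%, against 27.0% of all genes) and 5 fell (12.5%, against 28.5%). Ctss, the cathepsin that trims the invariant chain, rose from 379, 348 and 291 to 845, 646 and 941 CPM (log2 change 1.37, SE 0.164, edgeR adjusted p = 0.000298), while Ctsl fell by 2.44. Of 25 genes of DNA methylation and Polycomb 11 rose and 6 fell, with the maintenance methyltransferase Dnmt1 at 170, 225 and 203 CPM and then at 303, 399 and 239 CPM (log2 change 0.78, SE 0.209, edgeR adjusted p = 0.0147) and the de novo methyltransferase Dnmt3b falling by 1.36. In the circadian clock 4 of 19 rose (21.1%) and 6 fell (31.6%), and 3 fell without 2-week replicate 1 or 3 and 10 without 65-week replicate 3. Per1 rose by 1.08 (edgeR adjusted p = 0.00525) and Nr1d1 fell by 0.78 (edgeR adjusted p = 0.0171).

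Outside the lists, the largest falls among well-expressed protein-coding genes included genes of vessel and matrix. Npnt (chromosome 3, 132587506 to 132656257, minus strand), the integrin ligand nephronectin, went from 221, 174 and 208 to 1.90, 1.52 and 1.38 CPM (log2 change -6.85, SE 0.188, edgeR adjusted p = 7.23e-07). The log2 change was -6.74 for Aplnr, the apelin receptor of sprouting vessels, -6.42 for Hspg2, the basement membrane proteoglycan perlecan, and -6.13 for Clec14a, an endothelial lectin. It was between -6.51 and -6.29 for Nrep, Pxdn, Slco2a1 and Tspan18. The largest rise among them was that of Gpnmb (chromosome 6, 49013426 to 49047863), a glycoprotein of lipid-laden macrophages and osteoclasts. It was measured at 3.21, 3.45 and 3.85 CPM at 2 weeks and at 502, 321 and 140 CPM at 65 weeks (log2 change 6.66, SE 0.530, edgeR adjusted p = 3.42e-05). The neutrophil surface gene Cd177 rose by 3.36, from 66.4, 73.5 and 63.0 to 677, 741 and 488 CPM. Cd101, Wfdc17 and Dhrs9 rose by 3.28 to 3.61, and Apol11b, which has near copies, by 3.94.

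Genes seen at 1 age alone were nearly all seen at 2 weeks. At least 1 CPM in each library of 2 weeks and no count in any library of 65 weeks was found for 37 genes, and the reverse for 1, Ighg1. The 37 were picked out after their values were seen. The highest were Lrrc55, a potassium channel subunit, at 19.4 ± 2.96 CPM (SD, n = 3), Panx3, the pannexin of bone and cartilage, at 14.3 ± 2.55 CPM, and Plat, the tissue plasminogen activator, at 13.2 ± 2.55 CPM, which were at least 173-fold, 128-fold and 118-fold lower. Madcam1, an adhesion molecule on which lymphocytes roll, was at 10.7 ± 2.56 CPM. At the depth of the 65-week libraries a floor of 3 counts was 0.112 CPM, so lower levels could not be detected.

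Female libraries of the same ages formed a separate set of 6. In females 59.7% of genes differed with age (9030 of 15120 by edgeR). Among the 14775 genes tested in both sexes, 85.1% of those called in males were also called in females, and 78.8% of those called in females were called in males. The direction was shared by 6977 of the 6982 genes called in both. An interaction of sex and age, fitted to the 12 libraries together, was called for 0.00635% of genes, 1 of 15747, which was Prg4 and is in no list. Leaving male 65-week replicate 3 out of that fit gave 750 genes. List medians were close in most programmes, at -2.85 in males and -2.82 in females for hedgehog genes and at 3.29 and 3.24 for MHC class II genes. The counts of the cell division lists stood further apart. In females 4 of the DNA replication genes rose and 10 fell, with a median of -0.08, and 14 mitosis genes rose and 0 fell, with a median of 0.27. For interferon response genes 33 rose in females, and 18 in males. No member of a list was called in the interaction, so none of these list differences was shown to differ between the sexes by that test.

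**Figure D5:**
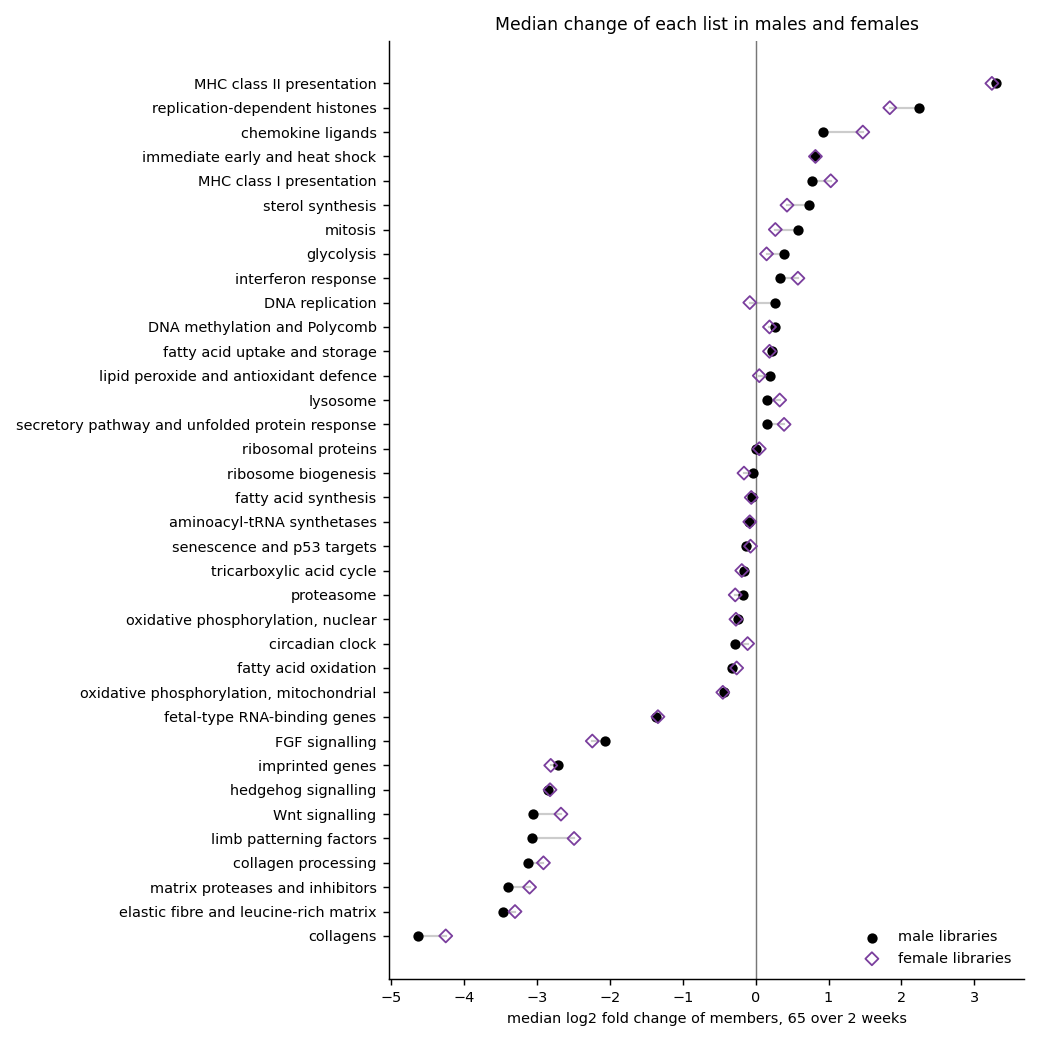
Median log2 fold change of tested members, 65 over 2 weeks (x axis), of the 36 programme lists (y axis) in male (black) and female (open diamond) libraries, 6 libraries each. DNA replication is at 0.27 in males and -0.08 in females, and limb patterning factors are at -3.07 and -2.49.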

How the data were processed

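RNA-seq was carried out on endomucin-selected BECs. The authors deposited raw counts for each gene. The submitters' processing notes name TopHat2, HTSeq and mm9, whereas the methods of the study name STAR, featureCounts and GRCm39, and this was not resolved. Strand use and the treatment of multimapping reads are not given in the sources used here, and a total RNA kit stands beside a polyA RNA label. Names, types and coordinates came from GENCODE M39 (GRCm39), which held 31052 of the 37620 IDs and 99.287% of all counts. Promoters were taken from RefSeq (GRCm38.p6).

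The 6 male libraries were fitted in edgeR 4.0.16 under R 4.3.3, without covariates. Low genes were removed by filterByExpr (minimum count 10), libraries were scaled by TMM, and the quasi-likelihood F test was adjusted over every gene tested by Benjamini-Hochberg, with calls at 0.05. The F statistic gave each standard error. A log2 change or a rise is that of this fit, 65 over 2 weeks. CPM are counts divided by the library total. A fold against a group with no count in any library was computed against 3 counts per library, which covers counting error only. The interaction was fitted on all 12 libraries, grouped by the sex and age in their labels. Replicates differed by more than sampling noise (chi-square divided by its degrees of freedom, 30.31 to 102.5).

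Gene lists and the comparison itself were chosen with earlier results of these data known, and no list was tested as a set. Named genes were, in each list, the 3 with the highest mean CPM and the 2 largest rises and falls among called genes whose libraries did not overlap, and outside the lists the 8 largest rises and falls of protein-coding autosomal genes called, at an average log2 CPM no lower than 5 and not overlapping. Other list members were named for their role. Some genes that meet the rule are not reported here. The alternatives were DESeq2 1.42.0, other scalings, filters and thresholds, a robust dispersion, thinning, a replicate block, all 12 libraries in 1 model, leaving out marker genes and leaving out each library. The fit was tested on simulated data.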

Additional observations from a re-analysis of the deposited data

Results flagged for a closer look

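Prg4, which encodes lubricin, a lubricating protein of joints, differed between the sexes in its change with age by a test of the difference itself. In males it was measured at 1.41, 1.44 and 2.50 CPM at 2 weeks and at 13.6, 9.59 and 9.75 CPM at 65 weeks. In females it was at 1.42, 2.40 and 0.992 CPM and then at 0.413, 0.528 and 0.580 CPM. Male libraries gave a log2 change with age of 2.75 (SE 0.294, edgeR adjusted p = 0.00016). Female libraries gave -1.51 (SE 0.409, edgeR adjusted p = 0.0132). The difference of the 2 changes was 4.26 (edgeR adjusted p = 0.0352). Over 20 alternatives the difference stayed between 3.85 and 4.57, with an adjusted p of 7.39e-12 to 0.261. The call was lost in 9 of them, the replicate block (edgeR adjusted p = 0.261) and 8 of the 12 fits that left out 1 library, and it also missed a threshold of 0.01. The sexes overlapped at 2 weeks and did not at 65 weeks.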

How the results depend on the processing

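The count of genes changed with age in males kept within 1.5 times of 8298 under every alternative run, from 5969 at an adjusted p under 0.01 to 9564 without 65-week replicate 3. Leaving out 1 library gave 6450 to 9564 genes, and 4137 to 5103 with a change of at least 2-fold. The replicate numbers did not pair the samples: deviations of same-numbered samples correlated at -0.00411, 0.149 and -0.049. With a replicate block 7593 genes were called in males and 0 in the interaction. The interaction called 362 genes with DESeq2, 7 without a low-count filter, 0 at an adjusted p under 0.01 and 0 to 750 with 1 library left out, against 1 gene in edgeR, which had 1880 at an unadjusted p under 0.05. The sign of 4 list medians turned. With 1 library left out, that of the secretory pathway and unfolded protein response (0.15) ranged from -0.01, without 65-week replicate 2, to 0.14, that of fatty acid uptake and storage (0.23) from -0.06, without 65-week replicate 3, to 0.26, and that of senescence and p53 targets (-0.13) from -0.22 to 0.05, without 65-week replicate 2. The last was 0.06 at a minimum count of 50. That of ribosome biogenesis went from -0.04 to 0.05 without 65-week replicate 1, and that of ribosomal proteins, 0.00, ranged from -0.12 with library totals to 0.02. The cause was not tested. Depth limits low genes most, since 3 counts are 0.0739 CPM at 2 weeks and 0.112 CPM at 65 weeks.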
